A study of Rattus norvegicus with 10 samples.

Results

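Klotho, vitamin D, parathyroid hormone and the calcium transport chain of the distal nephron are covered here by 10 genes, chosen by symbol: Kl, Vdr, Cyp24a1, Cyp27b1, Trpv5, Calb1, S100g, Slc8a1, Atp2b1 and Pth1r. All 10 symbols occurred once among the 32545 genes of the deposited table. All 10 had a mean of at least 0.5 FPKM (fragments per kilobase of gene, scaled for each library by the authors). This limit for testing was met by 14508 genes. RNA came from kidney cortex of Dahl salt-sensitive rats (SS/JrHsdMcwi, labelled wild type), an inbred strain that becomes hypertensive on salt. One group of 5 libraries came from rats that ate 4% NaCl with 2% oxonic acid, an inhibitor of the urate-degrading enzyme uricase, and the other group of 5 from rats that ate 4% NaCl with vehicle. Both diets lasted 3 weeks and followed 0.4% NaCl, with telemeters implanted at 8 to 9 weeks of age and 4 days of recording before the switch. Males and females were used, and the labels do not give the sex or the animal behind each library, so p-values measure only the spread between these samples, which may be partly technical. The labels name no group on low salt, so each value is a level during salt loading.

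Klotho is a membrane protein of the distal tubule that acts as co-receptor for the phosphate hormone FGF23, and its shed form circulates. Cyp27b1 makes the active form of vitamin D, Cyp24a1 degrades it, and Vdr is the nuclear receptor that active vitamin D binds; parathyroid hormone, through Pth1r, stimulates Cyp27b1. In the distal convoluted and connecting tubule, calcium enters through Trpv5, is carried by calbindins (Calb1 and S100g) and leaves through the sodium-calcium exchanger Slc8a1 and the calcium pump Atp2b1, a route that vitamin D, parathyroid hormone and klotho are known to stimulate.

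None of the 10 genes passed the test of oxonic acid against vehicle, and in all 10 the values of the groups overlapped. In limma's test on log2(FPKM + 0.5) with Benjamini-Hochberg adjustment over all genes tested, 0 of 10 had an adjusted p under 0.05, against 0 of 14508 genes (0%); limma's voom on reads recovered from the FPKM also gave 0, with 1528 genes at an unadjusted p under 0.05. At an unadjusted p under 0.05 the count was 1 of 10, Slc8a1, against 1377 of all genes tested (9.49%), so the share among the 10 was close to the background. Non-overlapping groups were found for 0 of 10, against 1.91% of all genes tested. Of the 10 genes 7 had a higher mean log2 level with oxonic acid and 3 a lower one, against 48.2% lower among all genes. The median log2 difference was 0.10 over the 10 genes and 0.005 over all genes tested. The count at an unadjusted p under 0.05 depended on single libraries. It was 3 without vehicle library 5, 2 without vehicle library 1 and 3 without vehicle libraries 4 and 5 together. With the replicate number as a block it was 2, and with the runs described next as a block 0. The count over all genes moved between settings too, for example to 971 with the runs as a block and 1659 with library weights. The counts of 2 and 3 can therefore not be set against the 9.49% of the main fit.

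The libraries held 14536674 to 18508428 reads in genes, of which mitochondrial genes took 11.6% to 13.5% with oxonic acid and 9.23% to 12.1% with vehicle. Their numbers in the labels fall into 3 runs, called A, B and C here, which the labels do not call batches. Oxonic acid libraries 1, 2 and 3 form run A, without any vehicle library. Run B is made up of oxonic acid library 4 and vehicle libraries 1, 2 and 3, and run C of oxonic acid library 5 and vehicle libraries 4 and 5. A difference between runs can therefore not be told apart from one between diets for run A, and values within runs B and C are given beside those of the genes. On the first principal component of the tested genes, vehicle library 4 was far from the rest (39.8, against -13.7 to 15.5 in the other 9 libraries). Cortical markers were present in every library: the proximal phosphate carrier Slc34a1 ran from 1441 to 2021 FPKM, the endocytic receptor Lrp2 from 212 to 293, the sodium chloride cotransporter Slc12a3 of the distal convoluted tubule from 66.5 to 131, the podocyte gene Nphs1 from 7.15 to 11.3. Umod, of the thick ascending limb, ran from 949 to 2342 FPKM, and Aqp2, of the collecting duct, from 59.3 to 142. Markers of inner medulla and thin limbs were highest in oxonic acid library 3, at a list level 1.07 above their mean on the log2 scale. In bulk tissue, fewer cells of a type and less RNA per cell cannot be told apart.

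The 10 genes covered a wide range of abundance, compared here as FPKM, which are per length. Means over the 10 libraries were 248 FPKM for Pth1r, 172 for Calb1, 88.7 for Kl, 36.0 for Vdr, 21.7 for Cyp24a1, 17.6 for Atp2b1, 15.2 for Slc8a1, 5.53 for Trpv5, 3.94 for S100g and 0.771 for Cyp27b1. Most neighbours in that order kept it in 10 of 10 libraries. The exceptions were Cyp24a1 over Atp2b1 (8 of 10 libraries), Atp2b1 over Slc8a1 (7 of 10) and Trpv5 over S100g (9 of 10). The transcript of the degrading enzyme was the more abundant of that pair in every library, and the ratio of Cyp24a1 to Cyp27b1 FPKM was 27.0 ± 12.6 under oxonic acid and 34.8 ± 11.9 under vehicle (SD, n = 5 each), with ranges of 13.5 to 45.9 and 22.7 to 54.3 that overlapped. Atp2b1 varied least, with a coefficient of variation of 6.0% over the 10 libraries, and Cyp27b1 (31.7%), S100g (27.4%), Calb1 (26.7%) and Slc8a1 (25.9%) varied most. Cyp27b1 rested on 22 to 44 reads per library and S100g on 11 to 41, for which counting error alone gives about 18.2% and 19.5%. For Calb1, with 2654 to 6168 reads, counting error gives 1.45%, and for Slc8a1, with 407 to 966 reads, 3.67%.

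**Figure D1:**
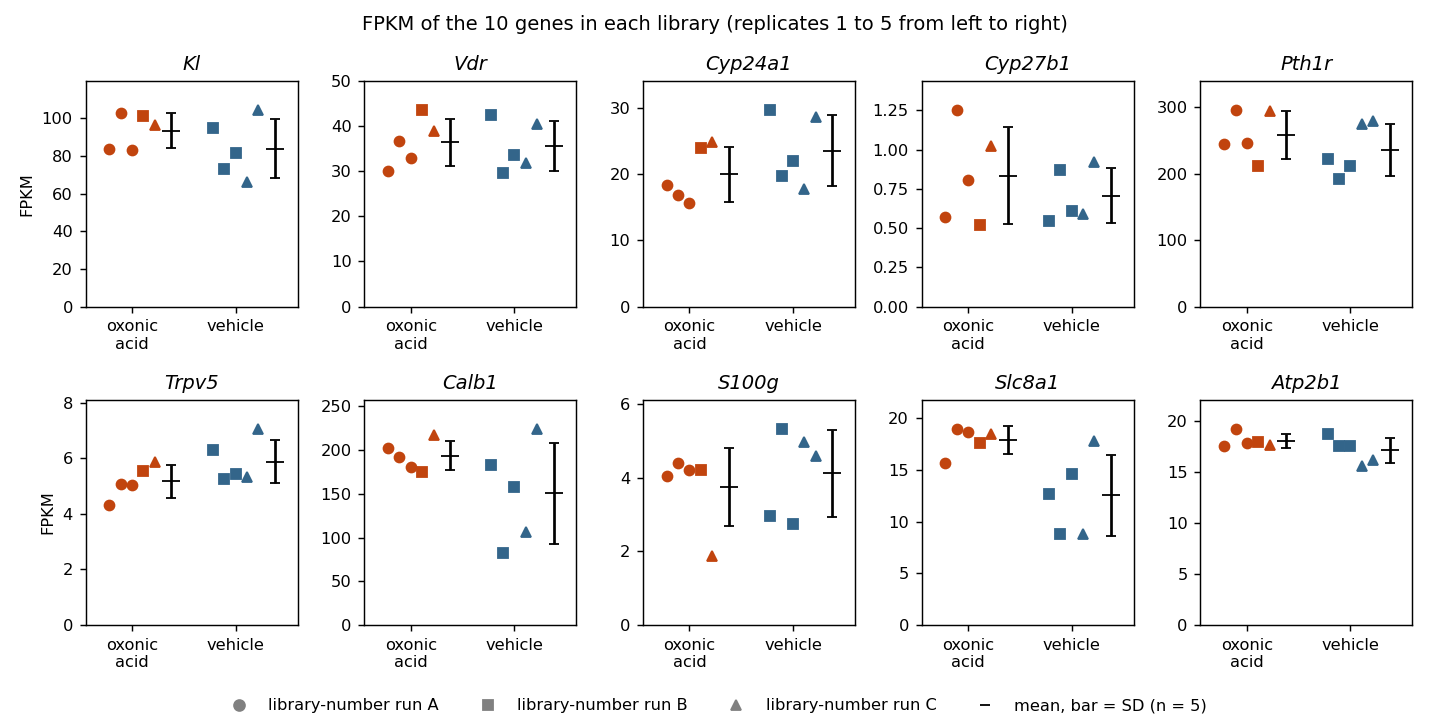
FPKM of each of the 10 genes (vertical axes, linear from 0) in the 5 oxonic acid and 5 vehicle libraries, with replicates 1 to 5 from left to right, symbols for the library-number runs, and black bars for mean and SD (n = 5). The groups overlap in every panel. Below all oxonic acid libraries lie vehicle libraries 2, 3 and 4 for Calb1 and vehicle libraries 1 to 4 for Slc8a1, with 2 and 4 lowest in both. For Cyp24a1 the 3 oxonic acid libraries of run A lie below the 2 others.

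Kl (ENSRNOG00000001092; chromosome 12, 943006 to 987551, plus strand; positions throughout follow the table, build not given in the sources used here) measured 83.7, 103, 83.0, 101 and 96.6 FPKM in oxonic acid libraries 1 to 5. In vehicle libraries 1 to 5 it measured 94.6, 72.9, 81.5, 66.3 and 104 FPKM. Every oxonic acid library lay above the vehicle median, but the highest value of all was vehicle library 5 and the groups overlapped. The means were 93.5 ± 9.55 and 83.9 ± 15.5 FPKM (SD, n = 5 each), a log2 difference of 0.17 (95% interval -0.10 to 0.43, limma adjusted p = 0.655), with 0.30 within run B and 0.22 within run C. It was 0.090 without vehicle library 4 and 0.25 without vehicle library 5. The lowest 2 values, in vehicle libraries 2 and 4, were also the libraries with the lowest level of distal convoluted and connecting tubule markers, a list of 16 tested genes that holds none of the 10.

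Vdr (ENSRNOG00000054420; chromosome 7, 139342063 to 139394166, minus strand) ran from 30.2 to 43.5 FPKM with oxonic acid and from 29.6 to 42.4 FPKM with vehicle. The means were 36.5 ± 5.21 and 35.6 ± 5.6 FPKM (SD, n = 5 each), and the log2 difference was 0.04 (95% interval -0.23 to 0.30, limma adjusted p = 0.939), the smallest in size among the 10. Within run B the difference was 0.32 and within run C 0.11, both above the pooled value. The oxonic acid libraries averaged 33.3 FPKM in run A and 41.3 FPKM in runs B and C.

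Kl and Vdr are shown with the 250 bases before their start sites because their levels varied together over the 10 libraries (r = 0.81). The sequences are RefSeq's for build GRCr8, matched by symbol, a match found for 7 of the 10 genes (Kl, Vdr, Cyp27b1, Trpv5, Slc8a1, Atp2b1 and Pth1r). Capitals mark the GC box GGGCGG on either strand, a motif bound by SP-family transcription factors. Kl lies on the plus strand at chr12:5325753-5326002 and Vdr on the minus strand at chr7:130916758-130917007.
Kl: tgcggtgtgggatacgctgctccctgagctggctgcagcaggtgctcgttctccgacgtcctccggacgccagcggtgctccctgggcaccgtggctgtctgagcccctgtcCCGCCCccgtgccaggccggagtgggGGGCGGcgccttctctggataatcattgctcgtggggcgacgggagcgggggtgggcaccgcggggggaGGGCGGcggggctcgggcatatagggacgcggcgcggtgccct
Vdr: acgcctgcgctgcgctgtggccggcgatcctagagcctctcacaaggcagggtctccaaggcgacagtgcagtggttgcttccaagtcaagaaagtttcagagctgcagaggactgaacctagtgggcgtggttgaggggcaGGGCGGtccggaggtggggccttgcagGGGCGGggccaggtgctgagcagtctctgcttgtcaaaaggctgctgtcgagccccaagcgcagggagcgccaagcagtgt
The Kl sequence holds 3 GC boxes and the Vdr sequence 2. Of the 7 genes with a sequence 4 held at least 1 (Kl, Vdr, Atp2b1 and Pth1r), against 30.5% of all 33469 promoters over the same 250 bases. These 4 were rich in G and C, at 64.3% to 78.7% over 300 bases, against 36.3% to 55% in the others. The median over all promoters was 51.7%. The sequence at 36.3%, that of Slc8a1, lies on the plus strand in GRCr8, whereas the deposited table places the gene on the minus strand. Whether that sequence is the start of the measured gene was not tested. A link between the boxes and the shared variation of Kl and Vdr was not tested. TATAAA, searched on both strands within 300 bases, was found in 1 of 7 (Cyp27b1), against 14.2% of all promoters. The search for GC boxes was added after the sequences were seen.

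Cyp24a1 (ENSRNOG00000013062; chromosome 3, 168097485 to 168111920, minus strand), the gene most directly induced by active vitamin D, split by run among the oxonic acid libraries only. It measured 18.4, 16.9, 15.6, 23.9 and 24.9 FPKM in oxonic acid libraries 1 to 5. In vehicle libraries 1 to 5 it measured 29.6, 19.8, 22.0, 17.7 and 28.6 FPKM. The 3 oxonic acid libraries of run A averaged 17.0 FPKM and the other 2, of runs B and C, averaged 24.4 FPKM. Vehicle library 4, of run C, lay among the run A values at 17.7 FPKM, and the vehicle values of runs B and C overlapped. Over all libraries the means were 19.9 ± 4.21 and 23.5 ± 5.33 FPKM (SD, n = 5 each), a log2 difference of -0.23 (95% interval -0.60 to 0.14, limma adjusted p = 0.668). It was -0.14 without vehicle library 1, -0.15 without vehicle library 5 and -0.15 without oxonic acid library 3. Within run B the log2 difference was 0.03 and within run C 0.14, and with the runs as a block it was 0.081, so the direction turned. All 5 oxonic acid libraries came from the same diet, so the split among them goes by run and not by diet. Against vehicle, run and diet cannot be told apart for run A, which holds no vehicle library.

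Cyp27b1 (ENSRNOG00000046214; chromosome 7, 70335061 to 70340005, plus strand), the 1-alpha-hydroxylase, was near the limit of testing. It ran from 0.521 to 1.25 FPKM with oxonic acid and from 0.545 to 0.919 FPKM with vehicle, with means of 0.834 ± 0.306 and 0.707 ± 0.173 FPKM (SD, n = 5 each). The log2 difference was 0.13 (95% interval -0.28 to 0.53, limma adjusted p = 0.838), with -0.19 within run B and 0.29 within run C. Without oxonic acid library 2, the highest, it was 0.021, and without oxonic acid library 4, the lowest, 0.22. Its spread over the libraries (31.7%) was larger than the counting error (18.2%).

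Pth1r (ENSRNOG00000020948; chromosome 8, 118988053 to 119012671, minus strand), the receptor for parathyroid hormone and its related peptide, was the most abundant of the 10 genes. It measured 212 to 295 FPKM with oxonic acid and 193 to 280 FPKM with vehicle. The means were 259 ± 35.9 and 236 ± 39.2 FPKM (SD, n = 5 each), a log2 difference of 0.14 (95% interval -0.14 to 0.41, limma adjusted p = 0.739), with 0.03 within run B and 0.09 within run C. Without vehicle libraries 4 and 5, which held the highest vehicle values, the log2 difference was 0.30 (limma unadjusted p = 0.0240, adjusted p = 0.442). It was 0.066 without vehicle library 2, 0.085 without oxonic acid library 2 or 5, 0.20 without oxonic acid library 4 or vehicle library 5, and 0.056 with the runs as a block.

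In the calcium transport chain no gene passed the threshold. The entry channel Trpv5 and the small calbindin S100g had lower means with oxonic acid, and Calb1 and the exit proteins Slc8a1 and Atp2b1 had higher ones, but the direction of S100g turned within run B and Trpv5 was close to 0 within both runs. Trpv5 (ENSRNOG00000015394; chromosome 4, 70947717 to 70974006, minus strand) measured 4.33, 5.06, 5.05, 5.55 and 5.87 FPKM in oxonic acid libraries 1 to 5. In vehicle libraries 1 to 5 it measured 6.31, 5.27, 5.43, 5.33 and 7.06 FPKM. The 3 lowest values were the oxonic acid libraries of run A, and the other 2 lay inside the vehicle range. The means were 5.17 ± 0.585 and 5.88 ± 0.781 FPKM (SD, n = 5 each), with a log2 difference of -0.17 (95% interval -0.39 to 0.06, limma adjusted p = 0.603). Within run B the difference was -0.02 and within run C -0.06, and without vehicle library 5 it was -0.10. Trpv6, the closest relative of Trpv5 and a channel with a similar sequence, was low, at 0.700 ± 0.24 and 1.22 ± 0.532 FPKM (SD, n = 5 each; log2 difference -0.50, limma adjusted p = 0.516), and was named after its values were seen.

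Trpv5 is known as a vitamin D target, so its promoter was searched for a vitamin D response element, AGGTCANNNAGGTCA, on both strands, with at least 9 of the 12 fixed bases matching. The 250 bases before its start (RefSeq, GRCr8, chr4:71529383-71529632, minus strand) are shown with the match in capitals.
Trpv5: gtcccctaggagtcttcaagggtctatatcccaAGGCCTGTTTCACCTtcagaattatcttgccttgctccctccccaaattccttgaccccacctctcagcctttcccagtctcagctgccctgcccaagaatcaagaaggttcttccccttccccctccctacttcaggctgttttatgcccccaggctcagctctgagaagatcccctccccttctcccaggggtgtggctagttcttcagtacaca
The match reads aggtgaaacaggcct on the opposite strand and begins 217 bases before the start site. Pth1r was the other of the 7 genes with a match, and 22.7% of all promoters of 300 bases hold one, so a match is common in such windows.

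Calb1 (ENSRNOG00000007456; chromosome 5, 29538380 to 29562773, plus strand), the large calbindin that ferries calcium through distal tubule cells, measured 202, 193, 181, 175 and 217 FPKM in oxonic acid libraries 1 to 5. In vehicle libraries 1 to 5 it measured 183, 82.0, 158, 106 and 224 FPKM. The oxonic acid libraries were close together, with a coefficient of variation of 8.75%, and the vehicle libraries ranged widely, with 38.2%, libraries 2 and 4 being low. The means were 194 ± 17.0 and 151 ± 57.5 FPKM (SD, n = 5 each), a log2 difference of 0.45 (95% interval -0.06 to 0.96, limma adjusted p = 0.561), with 0.39 within run B and 0.50 within run C. The difference was 0.25 without vehicle library 2, 0.35 without vehicle library 4 and 0.62 without vehicle library 5, which moves it by more than 1.5 times between the first and the last.

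Slc8a1 (ENSRNOG00000008479; chromosome 6, 4258991 to 4520604, minus strand), the sodium-calcium exchanger of the basolateral membrane, had the smallest p of the 10 genes. It measured 15.7, 18.9, 18.7, 17.6 and 18.5 FPKM in oxonic acid libraries 1 to 5. In vehicle libraries 1 to 5 it measured 12.7, 8.78, 14.6, 8.77 and 17.8 FPKM. Only vehicle library 5 reached into the oxonic acid range. The means were 17.9 ± 1.34 and 12.5 ± 3.88 FPKM (SD, n = 5 each), and the log2 difference was 0.55 (SE 0.17, 95% interval 0.16 to 0.93). This gave an unadjusted p of 0.00965 and a limma adjusted p of 0.396, so Slc8a1 did not pass, and it ranked 353rd by p among the genes tested. Within run B the difference was 0.56 and within run C 0.55, each resting on 1 oxonic acid library. In run C, oxonic acid library 5 (18.5 FPKM) lay far above vehicle library 4 (8.77) but close to vehicle library 5 (17.8). Leaving out each library in turn gave 0.44 to 0.68. With the runs as a block the unadjusted p was 0.0573 (limma adjusted p = 0.748). A microRNA locus of 0.302 FPKM lies within Slc8a1 on the opposite strand.

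**Figure D2:**
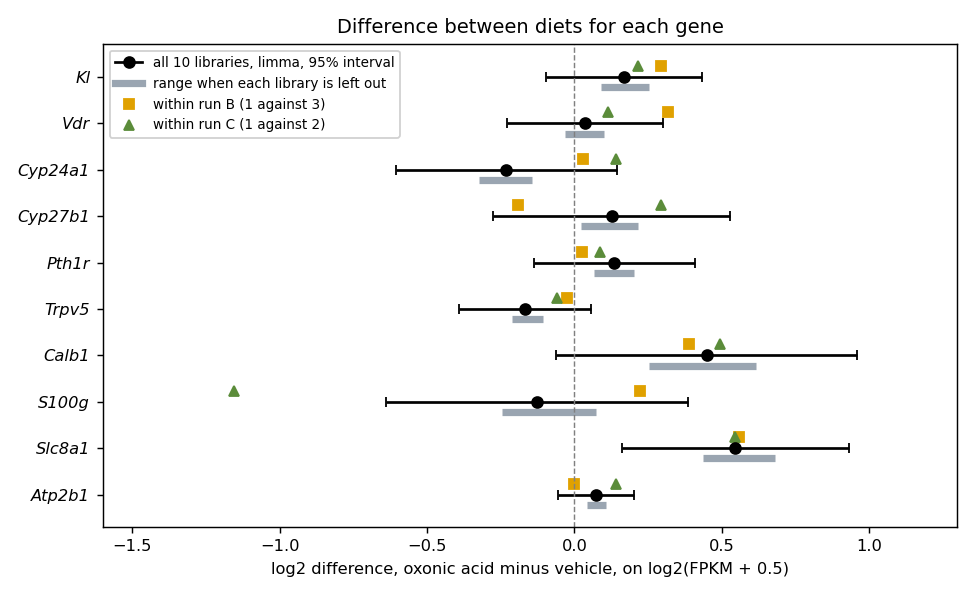
Log2 difference, oxonic acid minus vehicle, on the scale of log2(FPKM + 0.5), for each of the 10 genes; black points and bars are limma's estimate and 95% interval over 10 libraries, grey bars the range when each library is left out, squares and triangles the difference within runs B and C. Only the interval of Slc8a1, 0.16 to 0.93, does not include 0, before any adjustment, and the values of Cyp24a1 within both runs lie on the other side of 0 from the pooled value.

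S100g (ENSRNOG00000004222; chromosome X, 33443186 to 33445709, plus strand), the small calbindin, ran from 1.87 to 4.42 FPKM with oxonic acid and from 2.74 to 5.33 FPKM with vehicle. The means were 3.75 ± 1.06 and 4.12 ± 1.19 FPKM (SD, n = 5 each), with a log2 difference of -0.13 (95% interval -0.64 to 0.39, limma adjusted p = 0.879). Without oxonic acid library 5, the lowest, the log2 difference was 0.072, so its sign turned, although all 5 oxonic acid libraries lay below the vehicle median. It was 0.22 within run B and -1.15 within run C, which holds that library. S100g overlaps Ctps2 on the opposite strand, which measured 15.5 FPKM on average, and the library protocol names both a directional and a non-directional kit, so its few reads are uncertain. Atp2b1 (ENSRNOG00000004026; chromosome 7, 41114697 to 41220579, plus strand), a plasma membrane calcium pump found in most cells, measured 17.5 to 19.2 FPKM with oxonic acid and 15.6 to 18.7 FPKM with vehicle. Its log2 difference was 0.07 (95% interval -0.05 to 0.20, limma adjusted p = 0.698), the narrowest interval of the 10, with -0.002 within run B and 0.14 within run C. It was 0.042 without vehicle library 4.

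Vehicle libraries 2 and 4, low in Calb1 and Slc8a1, were also the lowest in distal convoluted and connecting tubule markers and in proximal tubule markers. They were the highest in injury markers. The level of the distal convoluted and connecting tubule list, the mean log2 value relative to the 10 libraries, was -0.38 in vehicle library 2 and -0.28 in vehicle library 4, against -0.02 to 0.15 in the other 3 vehicle libraries and 0.08 to 0.14 with oxonic acid. Of its 16 tested genes 13 were higher and 3 lower with oxonic acid, with a median log2 difference of 0.22 and 0 past the threshold. At an unadjusted p under 0.05 were 7 of the 16, all higher, against 4.32% of all genes tested. In 2 of the 16 the groups did not overlap, against 1.91% of all genes tested. The level differed by 0.22 within run B and 0.21 within run C. Its most abundant genes, Hsd11b2 and Slc12a3, had log2 differences of 0.13 and 0.16 (limma adjusted p of 0.720 and 0.787). The tubular injury list was at 0.43 and 0.55 in vehicle libraries 2 and 4, at 0.02 to 0.14 in the other vehicle libraries and at -0.54 to -0.07 with oxonic acid. Of its 19 tested genes 18 were lower and 1 higher with oxonic acid (median -0.59, 0 past the threshold). At an unadjusted p under 0.05 were 13 of the 19, all lower, against 5.17% of all genes tested. Its levels did not overlap between groups. The marker lists were chosen with earlier results of these data known, so these counts and levels are a description only. The level differed by -0.27 within run B and -0.45 within run C. Its most abundant genes were Spp1, at 1044 ± 304 and 1990 ± 866 FPKM, and Clu, at 148 ± 27.7 and 245 ± 105 FPKM (SD, n = 5 each; limma adjusted p of 0.414 and 0.417). Macrophage markers, 13 tested genes of which 12 were lower (median -0.22), ran from -0.24 to 0.05 with oxonic acid and from -0.03 to 0.32 with vehicle, with vehicle library 2 the highest; the most abundant, Lyz2 and C1qa, had log2 differences of -0.22 and -0.31 (limma adjusted p of 0.522 and 0.400). Of the other epithelial lists, principal cell markers had 10 of 10 higher (median 0.34), intercalated cell markers 8 of 12 (0.09), thick ascending limb markers 9 of 11 (0.15) and proximal tubule markers 14 of 17 (0.09). Within run C the level of principal cell markers differed by -0.02 and that of thick ascending limb markers by -0.11, against 0.28 and 0.21 within run B, and the highest levels of both lists were in oxonic acid libraries 1 and 3 of run A. Vehicle library 2 was the lowest of the 10 in intercalated (-0.41), principal cell (-0.35) and proximal tubule markers (-0.19). Vehicle library 4 was the lowest in podocyte (-0.43) and endothelial markers (-0.32). It was not low in every list: its level was 0.04 for thick ascending limb markers, the highest of the vehicle libraries. It was -0.06 for intercalated, -0.17 for principal cell and 0.31 for inner medulla and thin limb markers. The part of these lists in the values of Calb1 and Slc8a1 was not tested.

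**Figure D3:**
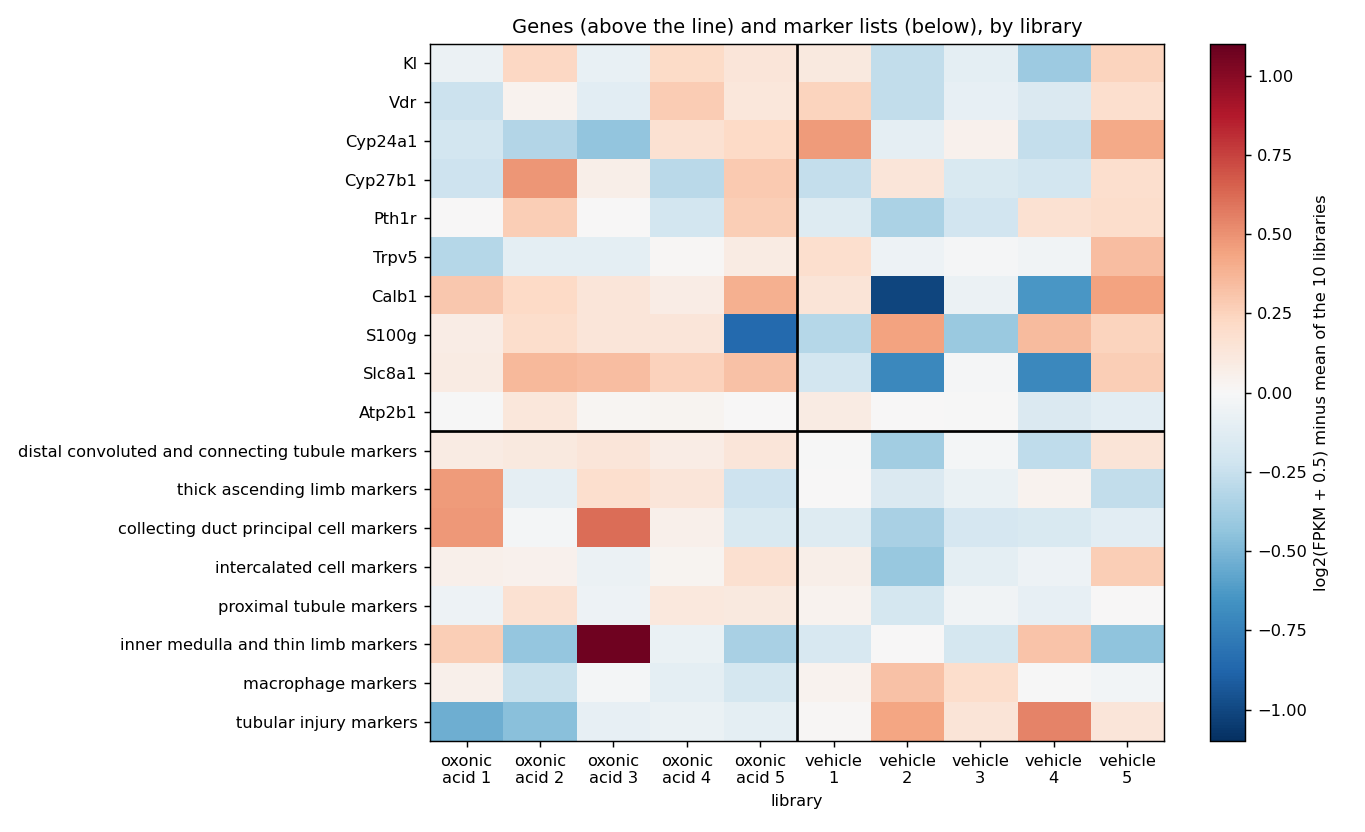
Each row is 1 of the 10 genes (above the line) or a marker list (below it), each column a library, and colour gives log2(FPKM + 0.5) minus the mean of the 10 libraries, averaged over the genes of a list. Vehicle libraries 2 and 4 are blue for Calb1, Slc8a1, Kl and the distal convoluted and connecting tubule list and red for the tubular injury list, and oxonic acid library 3 is darkest for the inner medulla list.

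Whether genes of one tubule segment or one hormone axis vary together was asked for 20 pairs of genes over the 10 libraries, on log2(FPKM + 0.5), with two-sided permutation tests adjusted over the 20 pairs. By Pearson's r 5 pairs passed, by Spearman's rho 1 did, and on deviations from the group means 7 did. The share among other pairs of genes was not computed. These counts therefore do not show that such pairs vary together more than other genes do. Outside the 20 pairs, Atp6v1a, the closest to Kl of 12342 candidates, followed Kl more closely (r = 0.99) than Slc12a3 did. No run held enough libraries for a value of its own, so differences between runs remain in these deviations. The closest pair was Kl and Slc12a3, with r = 0.90 (permutation p = 0.00027, adjusted 0.0054) and rho = 0.92 (permutation p = 0.00069, adjusted 0.0138). On deviations from the group means r was 0.90 (adjusted permutation p = 0.0075), so the relation stood with the diet means removed. Among oxonic acid libraries Kl averaged 89.9 FPKM in run A and 99.0 FPKM in runs B and C. Without vehicle libraries 2 and 4, the farthest from the median of Kl, r was 0.79 over 8 libraries (permutation p = 0.0154, adjusted 0.271).

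Kl and Vdr had r = 0.81 (permutation p = 0.00564, adjusted 0.0226) and rho = 0.73 (permutation p = 0.0202, adjusted 0.0806), and without the same 2 libraries r = 0.80 (permutation p = 0.0271, adjusted 0.271). Calb1 and Slc8a1 had r = 0.90 (permutation p = 0.00361, adjusted 0.0226) and rho = 0.64 (permutation p = 0.0547, adjusted 0.137). Without vehicle libraries 2 and 4 their r was 0.41, so this relation rests on them. The same holds for Kl and Calb1, with r = 0.80 (permutation p = 0.00479, adjusted 0.0226), rho = 0.78 (permutation p = 0.0102, adjusted 0.0632) and r = 0.49 without them. It holds too for Calb1 and Slc12a3, with r = 0.84 (permutation p = 0.00187, adjusted 0.0187), rho = 0.78 (permutation p = 0.0105, adjusted 0.0632) and r = 0.50 without them.

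Vdr and its target Cyp24a1 did not pass, with r = 0.73 (permutation p = 0.0197, adjusted 0.0597) and rho = 0.65 (permutation p = 0.0481, adjusted 0.137). On deviations from the group means their r was 0.84 (adjusted permutation p = 0.0197), and without vehicle libraries 1 and 5, the highest in Cyp24a1, r over all groups was 0.57. Cyp24a1 and Cyp27b1, which act in opposite directions on vitamin D, had r = -0.18 (permutation p = 0.606, adjusted 0.637) and rho = -0.20 (permutation p = 0.584, adjusted 0.614).

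Trpv5 and Slc12a3 were closer on deviations from the group means than over all libraries. Over all libraries r was 0.61 (permutation p = 0.0609, adjusted 0.135) and rho 0.58 (permutation p = 0.0871, adjusted 0.174), and on deviations r was 0.88 (adjusted permutation p = 0.0075). Without oxonic acid library 1 and vehicle library 5, the lowest and highest in Trpv5, r over all groups was 0.31. Calb1 and the injury gene Havcr1 had r = -0.69 (permutation p = 0.0304, adjusted 0.0759) and rho = -0.77 (permutation p = 0.0126, adjusted 0.0632), which did not pass, and r = -0.32 without vehicle libraries 2 and 4.

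**Figure D4:**
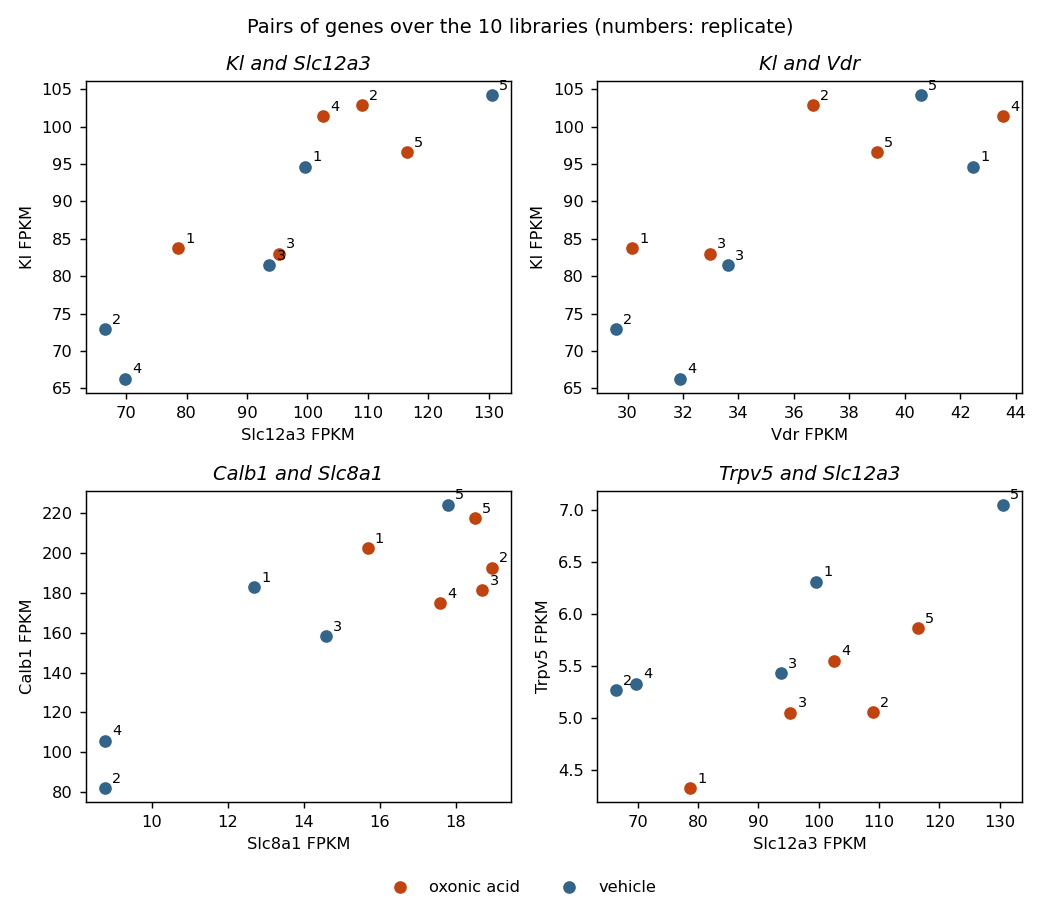
FPKM of 2 genes against each other, 1 point per library, coloured by diet and numbered by replicate, on linear axes that do not start at 0. Kl is higher where Slc12a3 (r = 0.90) and Vdr (r = 0.81) are higher, vehicle libraries 2 and 4 lie apart for Calb1 and Slc8a1, and Trpv5 is 4.64% to 5.5% of Slc12a3 with oxonic acid and 5.4% to 7.93% with vehicle.

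As a description, the tested protein-coding genes whose pattern over the 10 libraries was most like that of a given gene were listed for Kl, Calb1 and Cyp24a1, out of 12342 candidates. Closest to Kl were Atp6v1a, a subunit of the proton pump (r = 0.99), Mroh1 (0.97) and the helicase gene Dhx9 (0.95). Among those closest to Calb1 were the ammonia channel Rhcg (0.95) and Hsd11b2, the enzyme that shields the mineralocorticoid receptor from glucocorticoids (0.93). Closest to Cyp24a1 were Inpp1 (0.93), Zdhhc7 (0.89) and the lysosomal glucosidase Gaa (0.88).

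The other genes of these pathways were read from 6 lists with 129 symbols, of which 126 were in the table and 115 were tested. None passed the threshold. At an unadjusted p under 0.05, 11 were higher and 5 lower with oxonic acid, 13.9% of those tested, and all genes gave 4.32% higher and 5.17% lower, or 9.49% in all. In 5 of the 115 (4.35%) the groups did not overlap, against 1.91% of all genes tested. Their median log2 difference was 0.05. The hormones themselves were scarce or absent as transcripts: Fgf23 measured 0.212 ± 0.122 and 0.289 ± 0.173 FPKM (SD, n = 5 each), and Pth was listed at 0 in all 10 libraries, both named after their values were seen.

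In the list of klotho, FGF23 and phosphate genes 14 of 19 tested were higher and 5 lower with oxonic acid (median 0.08), 3 and 0 of them at an unadjusted p under 0.05. Its smallest p belonged to Enpp1, which makes the mineralization inhibitor pyrophosphate, at 11.9 ± 0.665 and 10.3 ± 1.0 FPKM (SD, n = 5 each; limma adjusted p = 0.424). Bace1, a protease that can shed klotho, measured 14.8 ± 0.914 and 13.0 ± 1.21 FPKM (limma adjusted p = 0.473), and its groups did not overlap. Among genes of vitamin D uptake, activation and receptor partners 17 of 21 were higher and 4 lower (median 0.08), 1 and 0 of them at an unadjusted p under 0.05. The nuclear receptor corepressor Ncor1 measured 20.7 ± 1.31 and 17.1 ± 2.26 FPKM without overlap (limma adjusted p = 0.401), and the chaperone Pdia3 measured 223 ± 11.8 and 244 ± 19.4 FPKM (limma adjusted p = 0.536).

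The transcellular calcium list was the only one of the 6 with a negative median, -0.05, with 7 of 17 tested genes higher, 10 lower, and 0 and 4 at an unadjusted p under 0.05. S100a10 and Anxa2, whose proteins form a complex that brings Trpv5 and Trpv6 to the membrane, led it. S100a10 measured 101 ± 13.2 and 147 ± 28.1 FPKM (SD, n = 5 each; log2 difference -0.53, limma adjusted p = 0.333), and Anxa2 measured 51.9 ± 7.04 and 70.6 ± 15.1 FPKM (log2 difference -0.42, limma adjusted p = 0.414). Anxa2 also belongs to the tubular injury list, and many cell types express both genes.

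Of the paracellular and calcium-sensing genes 11 of 15 were higher and 4 lower (median 0.09), 2 and 0 at an unadjusted p under 0.05. The calcium-sensing receptor Casr measured 13.1 ± 2.60 and 9.81 ± 2.48 FPKM (SD, n = 5 each; limma adjusted p = 0.518), and the G protein Gnaq 17.8 ± 1.07 and 15.2 ± 2.48 FPKM (limma adjusted p = 0.519). Of the parathyroid hormone signalling genes 14 of 22 were higher and 8 lower (median 0.04), 3 and 1 at an unadjusted p under 0.05. The 2 of smallest p, the adenylyl cyclases Adcy6 and Adcy9, had log2 differences of 0.17 and 0.25 (limma adjusted p of 0.491 and 0.520). Other adenylyl cyclases of the list, named after their values were seen, were Adcy5 (0.25, groups without overlap) and Adcy3 (0.008). Of the genes of intracellular calcium stores and entry 14 of 21 were higher and 7 lower (median 0.04), 2 and 0 at an unadjusted p under 0.05. The calcium release channel Itpr1 measured 23.3 ± 2.00 and 19.3 ± 1.72 FPKM, and the Golgi calcium pump Atp2c1 22.2 ± 1.52 and 19.7 ± 0.753 FPKM (SD, n = 5 each). Neither overlapped between groups, and neither passed (limma adjusted p of 0.370 and 0.401).

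**Figure D5:**
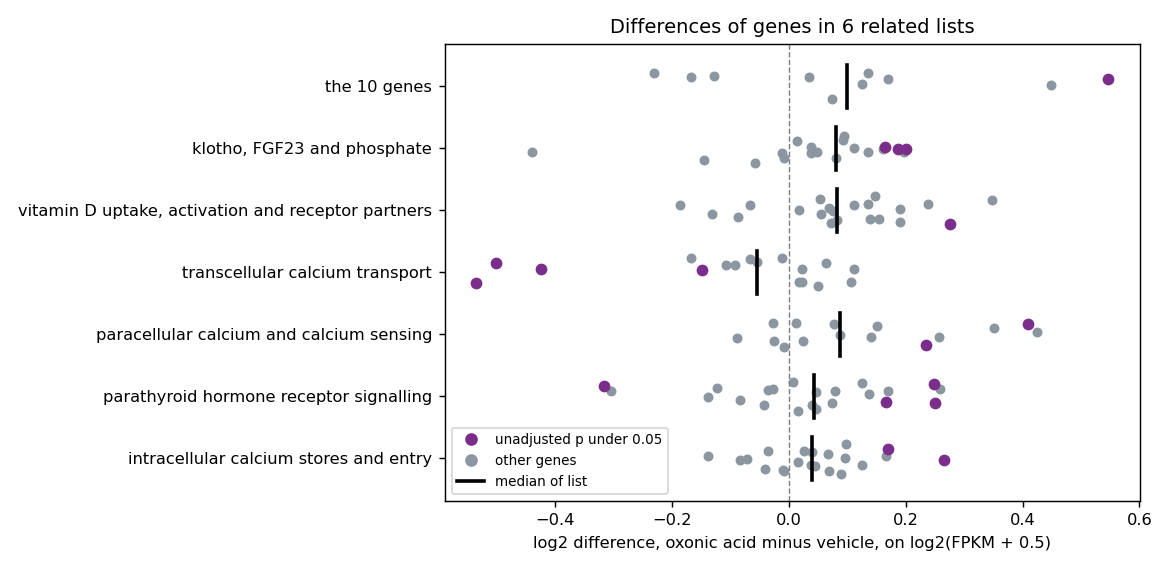
Log2 difference, oxonic acid minus vehicle, of each tested gene in the 10-gene set and in 6 related lists (1 point per gene, vertical scatter for legibility only; purple marks an unadjusted p under 0.05, black bars the median of each list). The transcellular calcium list is the one with its median, -0.05, below 0.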

How the data were processed

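Poly-A RNA, extracted with Trizol, was sequenced on Illumina instruments, per the labels' protocols. Tools listed in the submitters' processing notes are featureCounts 1.5.0-p3, HISAT2 2.0.5, fastp and StringTie 1.3.3b; their roles are not stated, and build and annotation: not given in the sources used here. The deposited table holds FPKM values computed by the authors, with 1 column per library, whose name is the library number in each sample's description. FPKM times gene length gave whole reads (100% of values within 0.01), used for depth. FPKM give relative abundance and do not weigh a value by its reads. Genes with a mean of at least 0.5 FPKM were tested on log2(FPKM + 0.5) with limma 3.58.1 (R 4.3.3, mean-variance trend, two-sided, Benjamini-Hochberg, threshold 0.05), checked on simulated data; the pseudocount understates fold changes of low genes. Intervals are limma's 95% intervals. Pairs of genes used 100000 permutations. The 21 alternatives are in the closing section.

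The 10 genes and all lists were chosen with earlier results of these data known. Outside the 10, genes are named as the 2 of smallest p per pathway list, the 3 most alike to Kl, Calb1 and Cyp24a1 (1 of them is not reported here), and Slc12a3, Havcr1 and tissue markers; exceptions are said. For the 3 marker lists set beside Calb1 and Slc8a1 the 2 most abundant genes are named; for other marker lists counts alone are given. The GC box search and the limit of 9 of 12 bases were chosen after the data were seen. Promoters are from RefSeq (GRCr8), 250 bases before to 50 after the start. Python 3.11.15 and matplotlib 3.10.9 drew figures.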

Additional observations from a re-analysis of the deposited data

Results flagged for a closer look

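In 2 of the 20 sets of 5 libraries (10 genes in each diet), 1 library lay far from the other 4 by Dixon's criterion, which chance alone meets in about 1 of 20 sets. S100g was at 1.87 FPKM in oxonic acid library 5, against 4.04 to 4.42 FPKM in the other 4, a value that rests on 11 reads. Atp2b1 was at 19.2 FPKM in oxonic acid library 2, against 17.5 to 17.9 FPKM in the other 4, a small excess in a gene with little spread.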

How the results depend on the processing

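None of the 10 genes passed the threshold under any of the 21 alternatives, and 202 recomputed differences kept the direction of the values given above while 7 turned. The alternatives covered pseudocounts of 0.1 and 1, no filter or a filter at 1 FPKM, libraries scaled to one total, voom on recovered reads, library weights, no trend, 2 kinds of block, each library left out and vehicle libraries 4 and 5 left out together. The direction turned for Cyp24a1 with the library-number runs as a block (0.081) and for S100g with library weights (0.051) and without vehicle libraries 4 and 5 (0.029). With each library left out, Vdr ranged from -0.031 to 0.10 and S100g from -0.24 to 0.072. Cyp27b1 was not tested with the filter at 1 FPKM. Without the 2 farthest libraries the correlations of Trpv5 with Slc8a1 (-0.051), Calb1 with S100g (0.012) and Kl with Havcr1 (0.21) changed sign. Over all genes, 1 gene passed with library weights, and 0 to 1 with each library left out (1 without vehicle library 1). Replicate numbers did not pair the libraries (correlations of same-numbered deviations -0.01 to 0.20, best with its own number for 1 of 5); with the replicate block 0 genes passed, 1445 had an unadjusted p under 0.05, and Calb1 had an unadjusted p of 0.0402 (limma adjusted p = 0.477). The count of genes at an unadjusted p under 0.05 ran from 971 (runs as a block) to 1670 (no filter), against 1377. Depth limits Cyp27b1 and S100g, at 11 to 44 reads.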

Other observations

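The FPKM of Trpv5, set against that of Slc12a3, which marks the distal convoluted tubule, was 5.18% ± 0.348 (SD, n = 5) with oxonic acid, from 4.64% to 5.5%, and 6.62% ± 1.12 (SD, n = 5) with vehicle, from 5.40% to 7.93%. The highest values, 7.93% and 7.64%, were those of vehicle libraries 2 and 4, which were low in Slc12a3, and the other vehicle libraries ran from 5.40% to 6.34%. The ranges overlapped, the ratio was chosen after the values were seen, and it was not tested.

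Pvalb, which encodes parvalbumin, the calcium buffer often used to mark the early distal convoluted tubule in rodents, was listed at 0 in the 5 oxonic acid libraries and averaged 0.0242 FPKM with vehicle, although Slc12a3 of the same segment was at 66.5 FPKM or more in every library. Klb, the relative of klotho that serves other FGF hormones, was likewise listed at 0 with oxonic acid and averaged 0.0120 FPKM with vehicle. Calb2, calretinin, a relative of Calb1, averaged 0.0412 and 0.0387 FPKM, against 172 FPKM for Calb1. These genes were chosen after their values were seen, and the depth at 0 reads does not show that a transcript is absent.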
